A study of Mus musculus with 16 samples.

Results

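Tlr3 and its TRIF signalling partners are 9 genes chosen by symbol for their known place in 1 pathway: the receptor gene Tlr3, the recruiting factor Wdfy1, the adaptors Ticam1 and Ticam2, the ligase Traf3, the kinases Tbk1 and Ikbke, the transcription factor Irf3, and Ripk1. Earlier results of these data were known when the genes were chosen. All 9 were found among the 23159 gene symbols of the count table. All 9 passed the filter on low counts, which kept 12455 genes.

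The libraries were made from macrophages washed out of mouse airways by bronchoalveolar lavage. Wild-type mice (WT) were set beside mice labelled TLR3-KO, and in each genotype control mice, whose treatment label reads none, were set beside mice labelled as following pneumonia, called injured in the sample titles. Per the labels' protocols, inoculation used a Klebsiella pneumoniae suspension prepared at 500 CFU per 30 µl, or saline, given to the hypopharynx under isoflurane. Each of the 4 groups held 4 libraries, 16 in all, where the series text counts 15. The series title speaks of male mice. The age, background strain and kind of Tlr3 allele, and the time between inoculation and lavage, are not stated in the labels. The labels name no mouse for a library, and p-values below therefore measure the spread between libraries, which may be technical. Levels are given as CPM, the counts scaled to the library total, and fold changes come from 1 model over all 16 libraries.

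TLR3 is an endosomal receptor for double-stranded RNA. It passes its signal through TRIF, the product of Ticam1, and WDFY1 helps to bring TRIF to the receptor. TRIF recruits the ubiquitin ligase TRAF3 and the kinases TBK1 and IKKε, which phosphorylate IRF3 so that it enters the nucleus and switches on interferon beta, while RIPK1 carries a second branch of the signal to NF-kB and to cell death. TLR4, the receptor for the lipopolysaccharide of bacteria such as Klebsiella, reaches TRIF as well, through TRAM, the product of Ticam2, which gives the same partners a role in bacterial pneumonia.

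Promoter sequence is shown for Tlr3, because the genotypes differ at that gene, and for Ikbke and Traf3, because their levels moved together from library to library, as described further on. The sequences are from RefSeq (GRCm38.p6) on the strand of the gene, 5′ to 3′. They stop at or before the start that RefSeq gives, leave out bases in a GENCODE M21 exon of the gene, and have distances counted from the RefSeq start. The GENCODE start, used for the gene positions given later, is the same for Traf3 but lies 43 bases further upstream for Ikbke and 700 for Tlr3, so that the Tlr3 stretch is inside the gene as GENCODE draws it. Of the 9 members, 7 had an entry (Wdfy1 and Ticam2 did not). In Tlr3 (chr8:45410381-45410452, minus strand) capitals mark the interferon regulatory factor element AANNGAAA, read on the opposite strand, which begins 59 bases before the RefSeq start. In Ikbke (chr1:131279607-131279813, minus strand) capitals mark the same element, also on the opposite strand, 132 bases before the RefSeq start and 89 before the GENCODE start. In Traf3 (chr12:111166120-111166369, plus strand) capitals mark GGGATTTCC, an NF-kB motif spelled out after the sequence had been seen, which ends just before the start.
Tlr3: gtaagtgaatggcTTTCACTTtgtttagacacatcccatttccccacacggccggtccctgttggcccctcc
Ikbke: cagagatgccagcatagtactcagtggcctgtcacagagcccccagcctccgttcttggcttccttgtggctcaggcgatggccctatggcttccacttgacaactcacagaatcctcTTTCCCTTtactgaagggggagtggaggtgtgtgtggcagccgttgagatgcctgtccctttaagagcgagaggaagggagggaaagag
Traf3: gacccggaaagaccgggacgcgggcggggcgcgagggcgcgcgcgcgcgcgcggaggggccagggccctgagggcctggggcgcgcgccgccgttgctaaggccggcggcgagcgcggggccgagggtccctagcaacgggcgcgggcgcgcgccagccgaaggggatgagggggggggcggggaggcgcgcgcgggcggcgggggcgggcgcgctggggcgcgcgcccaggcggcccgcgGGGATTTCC
Over 32851 promoter windows of 300 bases, searched on both strands, AANNGAAA was present in 23.9% and, among the members, in Tlr3, Ikbke and 1 window of Ripk1. GAAANNGAA, part of the longer interferon-stimulated response element, which can overlap AANNGAAA, was present in 8.56% of windows and, among the members, in the same window of Ripk1. GGGATTTCC was present in 0.323% of windows and, among the members, in Traf3 alone. A match describes the letters of a window and no binding was measured.

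Library totals lay between 29667102 and 59640251 counts. Macrophage markers summed to between 29600 and 41000 CPM in every library (5 of 6 listed genes were in the table). Neutrophil markers summed to 29.9 to 69.2 CPM in control and 58.8 to 264 CPM in injured libraries, and erythroid markers to 11.2 to 493 CPM in controls. Some sums parted control from injured libraries within a genotype. In WT these were erythroid markers (11.2 to 150 and 331 to 709 CPM) and recruited monocyte-macrophage markers (16.6 to 25.9 and 27.2 to 47.3 CPM). In TLR3-KO these were alveolar macrophage markers (2420 to 3970 and 4110 to 4990 CPM), though single genes of that list went both ways. Car4 (402 to 1230 and 1660 to 2470 CPM) and Marco (619 to 1050 and 1090 to 1260 CPM) were higher after pneumonia without overlap. Fabp4 (322 to 652 and 172 to 299 CPM) and Pparg (142 to 176 and 127 to 135 CPM) were lower without overlap, and Itgax and Ear2 overlapped. After pneumonia 4 marker lists separated the genotypes without overlap. Erythroid markers summed to 331 to 709 CPM in WT and 73.1 to 199 CPM in TLR3-KO injured libraries, those of alveolar macrophages to 3090 to 3940 and 4110 to 4990 CPM, those of lung epithelium to 83.2 to 116 and 138 to 185 CPM, and those of dendritic cells to at most 13.8 and at least 13.9 CPM. Gene by gene, Car4 alone of the alveolar genes and Ccr7 alone of the dendritic genes separated these injured groups. Of the epithelial genes, Scgb1a1 went the other way (4.06 to 7.43 CPM in WT, 1.48 to 2.87 CPM in TLR3-KO) and Epcam overlapped. Sftpc, Sftpb, Sftpa1, Krt8 and Cdh1 were higher in TLR3-KO without overlap. The largest of them was Cdh1, at 38.8 to 63.5 and 89.2 to 127 CPM. In controls the markers of recruited monocyte-macrophages separated the genotypes, at 16.6 to 25.9 CPM in WT and 26.7 to 45.8 CPM in TLR3-KO. Xist, an RNA made in female cells, stood at 42.3, 31.6 and 20.3 CPM in the first 3 TLR3-KO controls. It stood at 0.23 CPM in the remaining one and at most 0.139 CPM elsewhere. Those 3 libraries may therefore hold female RNA, against the sex stated above. The genotype comparison in controls, pneumonia in TLR3-KO and the difference of responses cannot be separated from this imbalance. The setting with TLR3-KO control 4 as the only TLR3-KO control leaves those 3 libraries out. Controls 1 and 2 of both genotypes differed from controls 3 and 4 in the cytokine gene Tnf, at 489 and 384 against 59.9 and 93.9 CPM in WT, and in TLR3-KO at 301 and 186 against 48.6 and 122 CPM. The part of these differences in the results below was not tested, except where values without those libraries are given.

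Tlr3 RNA followed the genotype labels in all 16 libraries, at a low level. The gene (ENSMUSG00000031639.12) occupies chr8:45395665-45411080 (mm10, minus strand). WT controls 1 to 4 held 2.18, 2.67, 4.53 and 4.52 CPM and WT injured libraries 2.35, 3.20, 3.93 and 4.27 CPM. TLR3-KO controls held 0.687, 0.274, 0.717 and 0.437 CPM and TLR3-KO injured libraries 0.353, 0.677, 0.472 and 0.464 CPM. Every WT library lay above every TLR3-KO library, and within each genotype the control and injured ranges overlapped. TLR3-KO was lower by 2.76 on the log2 scale in controls (SE 0.33, edgeR adjusted p = 0.000745) and by 2.83 after pneumonia (SE 0.34, adjusted p = 0.000558). The remaining 13 to 34 reads per TLR3-KO library made 15.2% and 14.3% of the WT mean, and the table does not show which exons they cover. In bulk RNA, fewer cells of a type and less RNA per cell cannot be told apart.

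Wdfy1 was the other member that passed the test between genotypes in this model, and it was lower in TLR3-KO by nearly as much as Tlr3 itself. It encodes a phosphoinositide-binding protein of early endosomes and lies on another chromosome, at chr1:79702262-79776143. WT controls 1 to 4 held 71.3, 70.0, 64.1 and 71.2 CPM and WT injured libraries 67.2, 68.7, 69.4 and 64.0 CPM. TLR3-KO controls held 10.4, 14.2, 12.9 and 17.8 CPM and TLR3-KO injured libraries 12.0, 10.9, 12.3 and 14.8 CPM. The 8 WT libraries stayed within 64.0 to 71.3 CPM, far above the highest TLR3-KO library, while control and injured overlapped in both genotypes. The log2 fold change of TLR3-KO over WT was -2.41 in controls (SE 0.13, adjusted p = 3.42e-08) and -2.46 after pneumonia (SE 0.13, adjusted p = 2.70e-08), which left 20.0% and 18.6% of the WT mean. With TLR3-KO control 4 as the only TLR3-KO control, the log2 fold change of Tlr3 was -3.15 and missed the threshold (adjusted p = 0.0546), while Wdfy1 passed. That arm then holds 1 library, which is assumed to vary like the other groups.

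**Figure D1:**
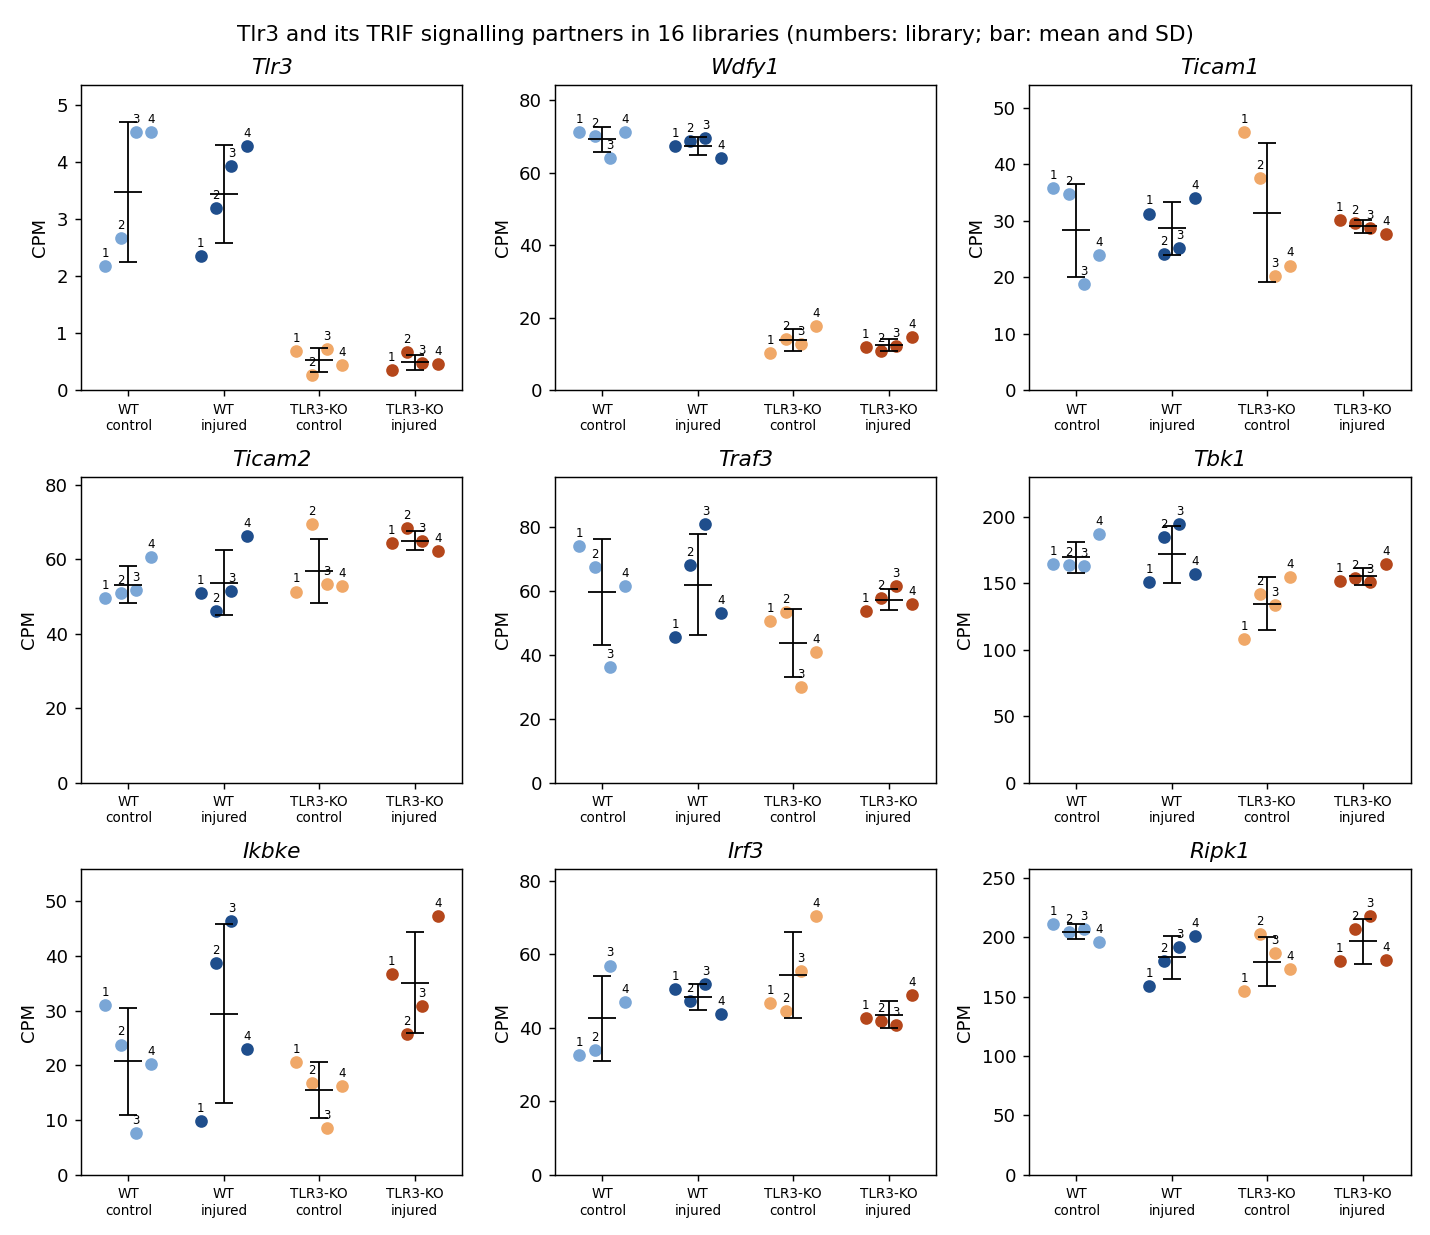
Each panel plots 1 gene: CPM (y axis, from 0) in the 16 libraries by group, with the library number beside each point and the group mean and SD as a bar (n = 4). Tlr3 and Wdfy1 part the genotypes completely, with Wdfy1 at 64.0 to 71.3 CPM in WT and 10.4 to 17.8 CPM in TLR3-KO, while Ikbke spreads from 7.70 to 47.3 CPM.

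The adaptors did not follow Tlr3 and Wdfy1. Ticam1 (chr17:56269319-56276786) stood at 35.8, 34.7, 18.9 and 23.9 CPM in WT controls and at 31.3, 24.2, 25.2 and 34.0 CPM in WT injured libraries. TLR3-KO controls held 45.8, 37.6, 20.3 and 22.1 CPM and TLR3-KO injured libraries 30.2, 29.6, 28.7 and 27.6 CPM. In both genotypes controls 1 and 2 were high and controls 3 and 4 low, so that the injured libraries fell between them and all groups overlapped. The genotype difference was 0.08 on the log2 scale in controls (95% interval -0.50 to 0.66) and -0.01 after pneumonia (-0.60 to 0.57), and the sign of both turned under other settings.

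Ticam2, whose product TRAM serves TLR4 and not TLR3, varied less than Ticam1 in both control groups (coefficients of variation 9.39% and 15.1%, against 29.2% and 39.1%). It lies at chr18:46557291-46574533 and overlaps Tmed7 on the same strand, so that reads of the shared part may have been assigned to either gene. WT controls held 49.5, 50.9, 51.7 and 60.5 CPM, WT injured libraries 51.0, 46.0, 51.5 and 66.1 CPM. TLR3-KO controls held 51.3, 69.5, 53.3 and 52.7 CPM, TLR3-KO injured libraries 64.4, 68.3, 64.9 and 62.2 CPM. The TLR3-KO injured libraries were the highest group by mean, 64.9 ± 2.51 CPM against 53.6 ± 8.67 CPM in WT injured (SD, n = 4 each), yet WT injured 4 lay among them and the difference did not pass (log2 fold change 0.25, 95% interval -0.02 to 0.51, adjusted p = 0.341).

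Traf3, the ligase that links TRIF to the kinases (chr12:111166370-111267153), varied with the library more than with the group. WT controls held 73.9, 67.5, 36.1 and 61.5 CPM and WT injured libraries 45.5, 68.0, 81.0 and 53.0 CPM. TLR3-KO controls held 50.6, 53.5, 29.8 and 40.8 CPM and TLR3-KO injured libraries 53.7, 57.7, 61.5 and 55.8 CPM. In TLR3-KO each injured library was above every control, by a narrow margin of 53.7 against 53.5 CPM at the nearest. That difference did not pass (log2 fold change 0.31, SE 0.24, adjusted p = 0.417), nor did the lower level in TLR3-KO than in WT controls (-0.53, SE 0.24, adjusted p = 0.233), although with the replicate number as a block the latter did (-0.51, adjusted p = 0.0298).

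Tbk1 was the member nearest to a call after Tlr3 and Wdfy1. It encodes the kinase that phosphorylates IRF3 in most cells (chr10:121546455-121586787). WT controls held 165, 164, 163 and 187 CPM and TLR3-KO controls 108, 142, 134 and 155 CPM. Injured libraries held 151, 185, 195 and 157 CPM in WT and 152, 154, 151 and 165 CPM in TLR3-KO. All 4 TLR3-KO controls lay below all 4 WT controls, whereas the injured groups overlapped. TLR3-KO controls stood at 79.5% of the WT mean (log2 fold change -0.41, SE 0.10, 95% interval -0.62 to -0.21, adjusted p = 0.0568), just outside the threshold of 0.05. The call was made with the replicate number as a block (-0.42, adjusted p = 0.0357), with RLE size factors (adjusted p = 0.0466), with DESeq2 (adjusted p = 0.00103), without WT control 3 (adjusted p = 0.0410) and without TLR3-KO control 2 (adjusted p = 0.0352). After pneumonia the difference was -0.17 (95% interval -0.38 to 0.03).

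Ikbke, which encodes the inducible relative of TBK1 (chr1:131254343-131279606), was the most variable member in both WT groups, with coefficients of variation of 47.1% in control and 55.6% in injured libraries. WT controls held 31.0, 23.8, 7.70 and 20.3 CPM and WT injured libraries 9.78, 38.7, 46.4 and 22.9 CPM. TLR3-KO controls held 20.6, 16.8, 8.48 and 16.3 CPM and TLR3-KO injured libraries 36.6, 25.7, 30.9 and 47.3 CPM. The TLR3-KO injured libraries all lay above the TLR3-KO controls, while the WT groups overlapped: WT injured 1 and 4 both lay below WT controls 1 and 2. The log2 fold change after pneumonia was 1.10 in TLR3-KO (SE 0.45, 95% interval 0.15 to 2.05, adjusted p = 0.161) and 0.37 in WT (SE 0.44, -0.57 to 1.31, adjusted p = 0.784). Neither passed, and the difference between them was 0.73 (95% interval -0.60 to 2.06).

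Irf3 (chr7:44997648-45002848) ran against Ticam1 in the controls. It overlaps Bcl2l12 on the opposite strand, and since the strand setting of the counting is not known, reads of the shared part cannot be assigned with certainty; Bcl2l12 itself stood at 5.47 to 10.3 CPM. WT controls held 32.5, 33.8, 56.9 and 46.9 CPM and WT injured libraries 50.5, 47.2, 51.8 and 43.7 CPM. TLR3-KO controls held 46.8, 44.6, 55.5 and 70.4 CPM and TLR3-KO injured libraries 42.5, 41.8, 40.8 and 48.9 CPM. Controls 1 and 2 were lower than controls 3 and 4 in both genotypes, and every pair of groups overlapped. The log2 fold change after pneumonia was 0.08 in WT (SE 0.15, 95% interval -0.24 to 0.40) and -0.38 in TLR3-KO (SE 0.15, 95% interval -0.69 to -0.06, adjusted p = 0.153).

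Ripk1 (chr13:34002363-34037147) stayed within a narrow band. It overlaps Serpinb6a, counted at 90.4 to 234 CPM, on the opposite strand. WT controls held 211, 204, 207 and 196 CPM and WT injured libraries 159, 180, 192 and 201 CPM. TLR3-KO controls held 155, 203, 187 and 173 CPM and TLR3-KO injured libraries 180, 207, 218 and 181 CPM. All 16 libraries fell between 155 and 218 CPM and all groups overlapped. The lower mean in WT injured than in WT control libraries had the lowest p-value of the members in that comparison and did not pass after adjustment (log2 fold change -0.28, SE 0.11, adjusted p = 0.391).

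Between genotypes in controls, 2 of the 9 members, Tlr3 and Wdfy1, were called in edgeR's quasi-likelihood test, both lower in TLR3-KO, against 0.658% of all genes tested (0.409% lower). With the replicate number as a block 4 were called, Tbk1 and Traf3 being added, against 7.20% of all genes. With TLR3-KO control 4 as the only TLR3-KO control 1 was called, Wdfy1, against 0.0834%. The CPM of the 2 groups did not overlap for 3 members, Tlr3, Wdfy1 and Tbk1, against 8.13% of all genes. Between genotypes after pneumonia the same 2 members, Tlr3 and Wdfy1, were called lower in TLR3-KO against 0.602% of all genes (0.225% lower), and the same 2 did not overlap, against 12.3%. Over the other 7 members, the log2 fold changes of TLR3-KO over WT lay between -0.53 and 0.28 in controls and between -0.18 and 0.25 after pneumonia. Tlr3 is the gene named in the genotype label, and the 9 members were chosen with earlier results of these data known. The counts set beside the shares of all genes are therefore no test of the members as a set.

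**Figure D2:**
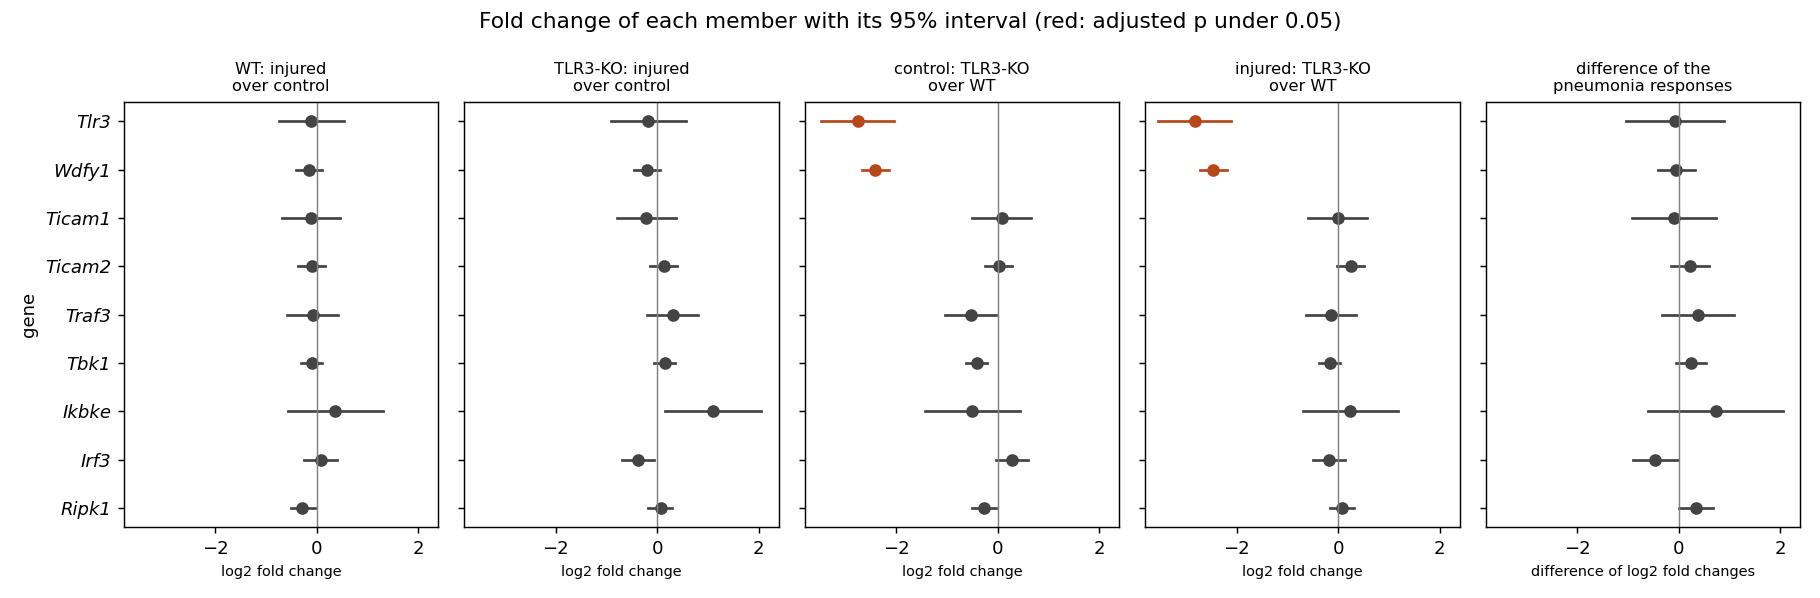
Points are log2 fold changes of the 9 members in 5 comparisons (1 panel each, the last a difference of log2 fold changes) with 95% intervals as lines, and red marks an adjusted p under 0.05. Red appears for Tlr3 and Wdfy1 alone, in both genotype panels, at -2.76 and -2.41 in controls and at -2.83 and -2.46 after pneumonia.

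After pneumonia in WT, 0 of the 9 members were called, against 0% of all genes tested (0 of 12455). By DESeq2 no member was called either, although it called 1.45% of all genes, and 1 member, Ripk1, had an unadjusted p under 0.05 in edgeR, against 10.7% of all genes. No member's groups parted, against 4.51% of all genes. The intervals were narrowest for Tbk1 (-0.30 to 0.11), Ripk1 (-0.51 to -0.04) and Wdfy1 (-0.41 to 0.10) and widest for Ikbke. These fitted values sit about 0.11 lower on the log2 scale than ratios of the CPM given above, because CPM uses raw totals and the fit uses scaled ones. With WT controls 1 and 2 as the only controls of that genotype, Irf3 alone was called, at 0.36 (adjusted p = 0.0478), against 12.9% of all genes.

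After pneumonia in TLR3-KO, 0 of the 9 members were called by edgeR or by DESeq2, against 1.09% of all genes in edgeR (0.578% higher and 0.514% lower). Irf3 and Ikbke had an unadjusted p under 0.05, as did 23.9% of all genes. Traf3 and Ikbke were the 2 members whose groups did not overlap, against 14.3% of all genes. With controls 3 and 4 only, 3 members were called, against 32.1% of all genes: Ticam1 at 0.44 (adjusted p = 0.0455), Traf3 at 0.69 (adjusted p = 0.0345) and Irf3 at -0.54 (adjusted p = 0.00969). The sign of Ticam1 is the opposite of that with all controls (-0.21). Each genotype comparison shares a control or injured group with a pneumonia comparison, so that these values are not independent of each other.

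The pneumonia responses of the genotypes were compared by their difference in log2 fold change, TLR3-KO minus WT. No member was called by edgeR or DESeq2, against 0% of all genes in edgeR and 0.787% in DESeq2. Ripk1 (0.34, 95% interval 0.01 to 0.67, adjusted p = 0.271) and Irf3 (-0.46, -0.90 to -0.01, adjusted p = 0.276) had an unadjusted p under 0.05, as did 17.7% of all genes. For Tlr3 and Wdfy1 the difference was -0.07 (95% interval -1.03 to 0.90) and -0.05 (-0.41 to 0.32).

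Per length, Tbk1 and Ripk1 had the highest levels of the 9 members and Tlr3 the lowest. CPM per kilobase of merged exon (RPKM) put Tbk1 highest in WT controls at 43.3 ± 2.93 and Ripk1 next at 24.5 ± 0.784 (SD, n = 4 each), and the ranges of their libraries did not overlap. A middle group followed whose neighbours overlapped: Irf3 at 12.4, Wdfy1 at 10.7, Ticam1 at 9.47, Ticam2 at 9.18 and Traf3 at 8.13 RPKM. Ikbke, at 2.30 ± 1.08 RPKM, lay below Traf3 without overlap and touched the range of Tlr3, the lowest at 0.668 ± 0.236 RPKM. By its mean level per length the receptor gene was the lowest of the 9 in each of the 4 groups.

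Across the groups the order changed mainly at Wdfy1. It ranked 4 of 9 in both WT groups, at 10.7 and 10.4 RPKM, but 7 in TLR3-KO controls, at 2.13 ± 0.473, and 8 in TLR3-KO injured libraries, at 1.93 ± 0.256 RPKM. In TLR3-KO controls its range overlapped that of Ikbke (1.73 ± 0.566 RPKM), and in TLR3-KO injured libraries Ikbke, at 3.90 ± 1.03 RPKM, lay above it without overlap. The ratio of Tbk1 to Ikbke per length was 24.5 ± 16.5 in WT control, 18.0 ± 12.0 in WT injured, 22.5 ± 10.2 in TLR3-KO control and 10.7 ± 2.48 in TLR3-KO injured libraries (SD, n = 4 each). Single libraries ran from 8.04 in TLR3-KO injured 4 to 48.7 in WT control 3, a spread that came from Ikbke.

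**Figure D3:**
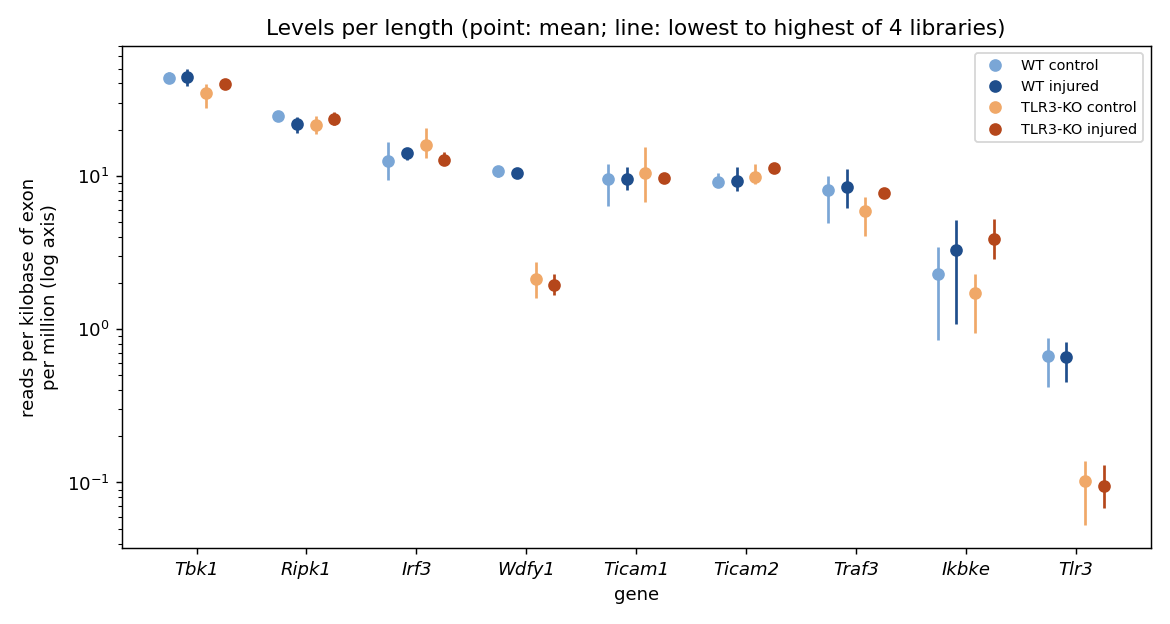
Points are group means of RPKM (log axis) for the 9 members in the 4 groups, and lines run from the lowest to the highest of 4 libraries. Tbk1 lies highest in every group and Tlr3 lowest, at 0.668 RPKM in WT control and 0.102 RPKM in TLR3-KO control libraries, and Wdfy1 shows a gap between genotypes.

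Some members moved together from library to library within groups. Ikbke and Traf3 were both lowest in the same library of 3 groups: WT control 3 (7.70 and 36.1 CPM), WT injured 1 (9.78 and 45.5 CPM) and TLR3-KO control 3 (8.48 and 29.8 CPM). In WT injured 3 both were highest, at 46.4 and 81.0 CPM. In TLR3-KO injured libraries they did not follow each other: Traf3 stayed within 53.7 to 61.5 CPM while Ikbke ran from 25.7 to 47.3 CPM. The 3 low libraries were also the lowest of their groups for the interferon-induced gene Ifit1, at 1.45 CPM in WT control 3, 7.04 CPM in WT injured 1 and 1.64 CPM in TLR3-KO control 3. In TLR3-KO controls the margin was small, as controls 1, 2 and 4 held 2.23, 1.73 and 1.84 CPM.

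Ticam1 and Irf3 made the opposite pair. In controls 1 and 2 of both genotypes Ticam1 lay between 34.7 and 45.8 CPM and Irf3 between 32.5 and 46.8 CPM. In controls 3 and 4 Ticam1 lay between 18.9 and 23.9 CPM and Irf3 between 46.9 and 70.4 CPM. Tnf, too, was higher in controls 1 and 2 than in controls 3 and 4. The injured libraries, with Ticam1 at 24.2 to 34.0 CPM, lay between those 2 sets of controls for Ticam1, whereas their Tnf, at 120 to 245 CPM, overlapped both sets.

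**Figure D4:**
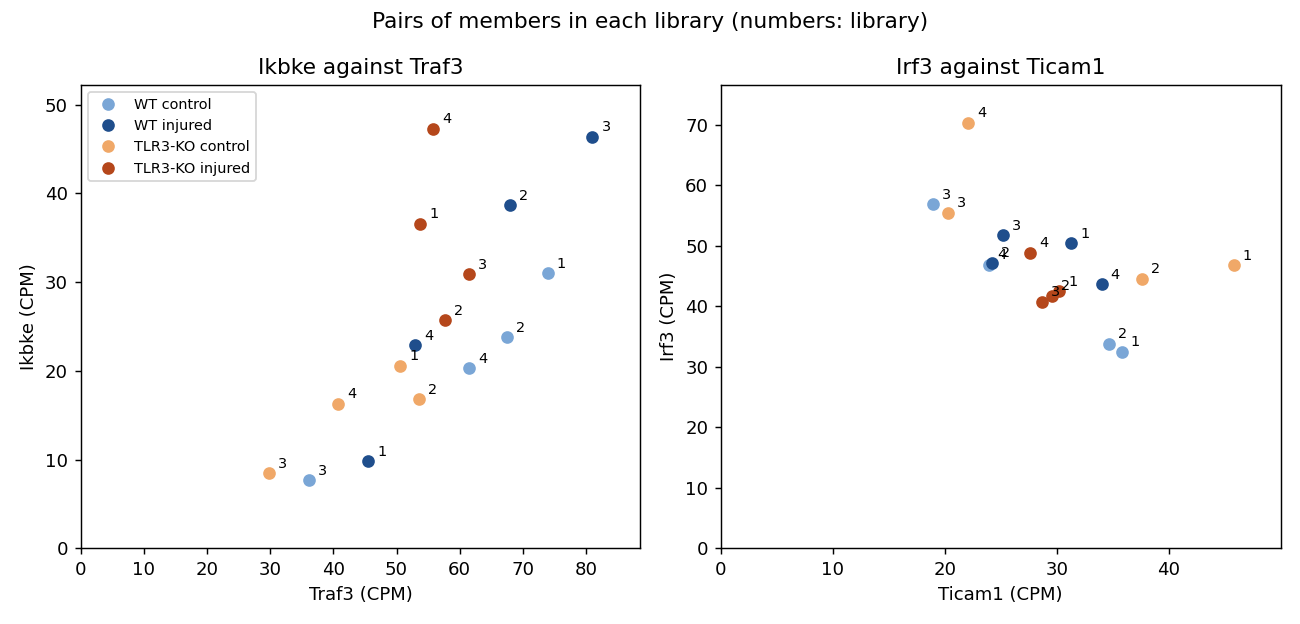
Each point is 1 library, numbered and coloured by group. The left panel sets Ikbke against Traf3 and the right panel Irf3 against Ticam1, all in CPM on linear axes from 0. WT control 3, TLR3-KO control 3 and WT injured 1 lie at the lower left for Ikbke and Traf3, at 7.70 to 9.78 CPM of Ikbke, and controls 3 and 4 lie at the upper left for Irf3 and Ticam1.

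Over all 16 libraries the genes most like Tlr3 in log2(CPM + 0.5) were Hgsnat (Pearson r = 0.97), Wdfy1 (0.93), Mtmr7 (0.93), Gsr (0.92) and Pomk, listed as 4930444A02Rik (0.92). Of these, Wdfy1 alone lies off chromosome 8. Mtmr7 is 4.81 Mb, Gsr 11.7 Mb, and Hgsnat and Pomk 19.4 Mb from Tlr3. The genes most like Wdfy1 were Mtmr7 (0.98), Erdr1 (0.96), Hgsnat (0.94), Tlr3 (0.93) and the low-count gene Gm6498 (0.93). These correlations describe the 16 libraries and mostly the step between genotypes that they share: after subtracting each group's mean, that of Tlr3 with Wdfy1 was -0.38.

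Mtmr7, which encodes a phosphoinositide phosphatase, headed the list for Wdfy1 with a like pattern of levels. It stood at 65.9 ± 8.29 CPM in WT control, 66.0 ± 7.91 CPM in WT injured, 17.2 ± 1.92 CPM in TLR3-KO control and 12.8 ± 1.13 CPM in TLR3-KO injured libraries (SD, n = 4 each). Hgsnat, a lysosomal acetyltransferase and the gene most like Tlr3, stood at 143 ± 32.5, 123 ± 16.3, 50.1 ± 2.15 and 57.6 ± 1.53 CPM in the same order of groups. Both passed the test between genotypes in controls, at -2.02 (adjusted p = 3.25e-07) and -1.58 (adjusted p = 1.95e-06). Since Mtmr7 and Hgsnat were picked by their likeness to Wdfy1 and Tlr3 over these same libraries, their calls are no separate evidence.

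Neighbouring genes were counted next, by how many were called between genotypes. Within 5 Mb of Tlr3, 4 of 28 tested neighbours (14.3%) were called in controls and 5 of 28 (17.9%) after pneumonia, against 0.658% and 0.602% of all genes. Within the same distance of Wdfy1, 1 of 31 neighbours was called in controls (Cul3) and 0 of 31 after pneumonia. Around Irf3 2 of 102 and 1 of 102 were called, around Ticam2 1 of 22 and 0 of 22, and around the other 5 members none. In controls these shares were 4.55% around Ticam2, 3.23% around Wdfy1 and 1.96% around Irf3, against 0.658% of all genes. Each of them rests on 1 or 2 called genes.

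The proteins that fold, cut and supply TLR3 were next taken as a list (11 of 12 genes tested), and Msr1 stood out in it. Msr1 encodes a scavenger receptor that takes up double-stranded RNA and other polyanions. After pneumonia it was at 126, 140, 141 and 133 CPM in TLR3-KO injured libraries and at 33.4, 41.6, 52.3 and 44.2 CPM in WT injured libraries, without overlap. It was 3.09-fold higher in TLR3-KO than in WT (log2 fold change 1.63, SE 0.17, adjusted p = 0.000111), the only call of the list in that comparison, where 0.377% of all genes were called higher. In controls it was at 80.2, 99.1, 96.0 and 148 CPM in TLR3-KO and 59.1, 68.4, 44.8 and 74.1 CPM in WT, again without overlap, with an adjusted p of 0.0597. With the replicate number as a block, Msr1 was called there too (log2 fold change 0.69, adjusted p = 0.0209), where 7.20% of all genes were called. The separation of 4 marker lists between the same injured groups is given above, and its part in the difference was not tested. The difference of its pneumonia responses was 0.94 (SE 0.24, adjusted p = 0.237). The gene lies at chr8:39581685-39642673, 5.75 Mb from Tlr3. Without the block, edgeR called no gene of the list in the other comparisons, in which 2 to 4 had an unadjusted p under 0.05 and DESeq2 called 1 or 2, against 10.7 to 23.9% and 0.787 to 8.28% of all genes.

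Scaffolds and ubiquitin partners of the kinases (12 genes) had no call between genotypes in edgeR without the replicate block. In controls 11 of the 12 log2 fold changes were negative, with a median of -0.29 against 0.04 over all genes, and 4 had an unadjusted p under 0.05, against 19.8% of all genes. DESeq2 called 3, against 6.27%. Peli1, a ubiquitin ligase, had the lowest p (log2 fold change -0.50, adjusted p = 0.0800). With the block it was called (-0.50, adjusted p = 0.0280), as was the ligase gene Traf6, both lower in TLR3-KO, where 7.20% of all genes were called. After pneumonia 4 had an unadjusted p under 0.05, against 1998 of all 12455 genes, and DESeq2 called 2, against 3.56%. The lowest p there belonged to Optn, a ubiquitin-binding scaffold of TBK1 (-0.68, SE 0.16, adjusted p = 0.0610). In the pneumonia comparison within TLR3-KO, 3 genes of the list had an unadjusted p under 0.05 and DESeq2 called 3, against 23.9% and 8.28% of all genes. There edgeR called 1 gene, higher, against 0.578% of all genes. This was Tbkbp1, an adaptor that binds TBK1, which rose by 0.91 on the log2 scale (SE 0.20, adjusted p = 0.0425), from 19.5, 18.3, 11.2 and 14.6 CPM in controls to 32.1, 33.4, 33.4 and 27.2 CPM. The call held in 5 of 16 alternative settings and in 2 of the 8 that left out 1 library (without TLR3-KO control 1 or 2); without TLR3-KO control 3 the value was 0.77 (adjusted p = 0.116), and without TLR3-KO injured 3 it was 0.88 (adjusted p = 0.145). In WT injured libraries it was at 15.2 to 24.2 CPM, overlapping the WT controls, which reached 18.1 CPM, and the list had no call in WT by either tool, nor a gene with an unadjusted p under 0.05.

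In the RIPK1 branch to NF-kB and cell death (16 genes), Zbp1 was the single call of edgeR in any comparison without the replicate block. ZBP1 is a sensor of Z-form nucleic acids that binds RIPK3. In TLR3-KO it rose after pneumonia from 5.88, 5.68, 3.39 and 3.33 CPM to 12.5, 8.25, 8.97 and 19.8 CPM, a log2 fold change of 1.35 (SE 0.30, adjusted p = 0.0433), where 0.578% of all genes were called higher. The call held in 4 of 16 alternative settings and in 1 of the 8 that left out 1 library (without TLR3-KO control 2); without TLR3-KO control 3 the value was 1.23 (adjusted p = 0.122). In WT the groups did not overlap either, with at most 6.83 CPM in controls and 11.7 to 15.0 CPM after pneumonia, with a log2 fold change of 1.16 (SE 0.30) and an adjusted p of 0.205. Between genotypes in controls 11 of 16 members were negative (median -0.28 against 0.04 over all genes) and 7 had an unadjusted p under 0.05, against 19.8% of all genes. DESeq2 called 4 there, 1 after pneumonia in WT, 3 after pneumonia in TLR3-KO and 1 between injured genotypes, against 6.27%, 1.45%, 8.28% and 3.56% of all genes. With the block 5 were called between control genotypes, Tab3, Cflar, Chuk, Map3k7 and Rela, all lower in TLR3-KO, where 7.20% of all genes were called.

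Negative regulators of TRIF signalling (10 of 12 genes tested) had no call in edgeR in any comparison without the block. In these comparisons 0 to 3 genes had an unadjusted p under 0.05, against 10.7 to 23.9% of all genes. DESeq2 called 2 of them between genotypes in controls, against 6.27% of all genes, and 0 in the other comparisons, against 0.787 to 8.28%. With the block 3 were called between control genotypes, Tnfaip3, Cyld and Dtx4, all lower in TLR3-KO, where 7.20% of all genes were called. The lowest p in controls was that of Cyld, a deubiquitinase (log2 fold change -0.57, adjusted p = 0.0895). The other receptors and adaptors, among them Tlr4, Ly96, Tlr7 and Myd88 (7 of 8 tested), likewise had no call by either tool or, between control genotypes, with the block, and 3 had an unadjusted p under 0.05 after pneumonia in TLR3-KO, against 23.9% of all genes. Tlr4 stood at 58.9 to 110 CPM over all libraries.

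Genes that IRF3 is known to switch on (12 of 14 tested) had positive medians after pneumonia in both genotypes, 1.32 in WT and 1.48 in TLR3-KO on the log2 scale, against 0.01 and -0.01 over all genes. Ifit1, Ifit2, Ifit3 and Rsad2, antiviral effectors, were called higher in TLR3-KO, against 0.578% of all genes, with 9 of the 12 at an unadjusted p under 0.05, against 23.9%. In WT 0 were called and 7 had an unadjusted p under 0.05, against 10.7% of all genes, and DESeq2 called 1, against 1.45%. TLR3-KO controls held 2.23, 1.73, 1.64 and 1.84 CPM of Ifit1 and TLR3-KO injured libraries 23.1, 3.55, 8.19 and 46.5 CPM, a log2 fold change of 3.38 (SE 0.69, adjusted p = 0.0376). Without TLR3-KO injured 4, the highest library, it was 2.59 and not called (adjusted p = 0.0660), and of the 8 settings that left out 1 library the call held in 2 (without TLR3-KO control 2 or injured 2). Without TLR3-KO injured 4, Ifit2, Ifit3 and Rsad2 were at 2.69, 2.51 and 2.79 in place of 3.30, 3.30 and 3.56, and none was called. Leaving out TLR3-KO control 4 put Rsad2 at 4.38, not called either. In WT Ifit1 stood at 6.89, 6.19, 1.45 and 4.49 CPM in controls and at 7.04, 21.1, 27.5 and 12.9 CPM after pneumonia. For Ifit1 the groups did not overlap in either genotype, and TLR3-KO injured 2 and WT injured 1 were the low libraries. Rsad2 overlapped in TLR3-KO, with 9.31 CPM in control 4 and 5.56 CPM in injured 2. The difference of the responses was not called for any of the 12 by either tool, and 1 had an unadjusted p under 0.05, against 17.7% of all genes.

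Between genotypes in controls the same list had a median of -0.85 (10 of 12 negative) and no call in edgeR, with or without the replicate block, with 2 genes at an unadjusted p under 0.05 and 1 called by DESeq2, against 19.8% and 6.27% of all genes. After pneumonia the median was 0.23 and none was called or had an unadjusted p under 0.05. Interferon beta itself was close to absent: Ifnb1 had 0 to 2 reads and Ifna4 0 or 1 read per library, too few to test. Of the interferon receptor pathway (10 genes), edgeR without the block called Usp18, a brake on that receptor, rising after pneumonia in TLR3-KO by 2.85 (SE 0.60, adjusted p = 0.0412), with 0.592, 0.358, 0.380 and 0.414 CPM in controls and 3.69, 0.846, 1.96 and 6.72 CPM after pneumonia. In that comparison 0.578% of all genes were called higher. Without TLR3-KO injured 4 Usp18 was at 2.25 and not called (adjusted p = 0.0728). Of the 10 genes, 4 had an unadjusted p under 0.05 after pneumonia in TLR3-KO and DESeq2 called 2, against 23.9% and 8.28% of all genes. With the block Jak1, a kinase of the interferon receptor, was called between control genotypes, lower in TLR3-KO by 0.61 on the log2 scale (adjusted p = 0.0282), where 7.20% of all genes were called. The 7 calls after pneumonia in TLR3-KO named from these lists (Tbkbp1, Zbp1, Ifit1, Ifit2, Ifit3, Rsad2 and Usp18) each held in 4 to 6 of 16 alternative settings, with unchanged direction in all 16, whereas the call of Msr1 held in 13 of 13.

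**Figure D5:**
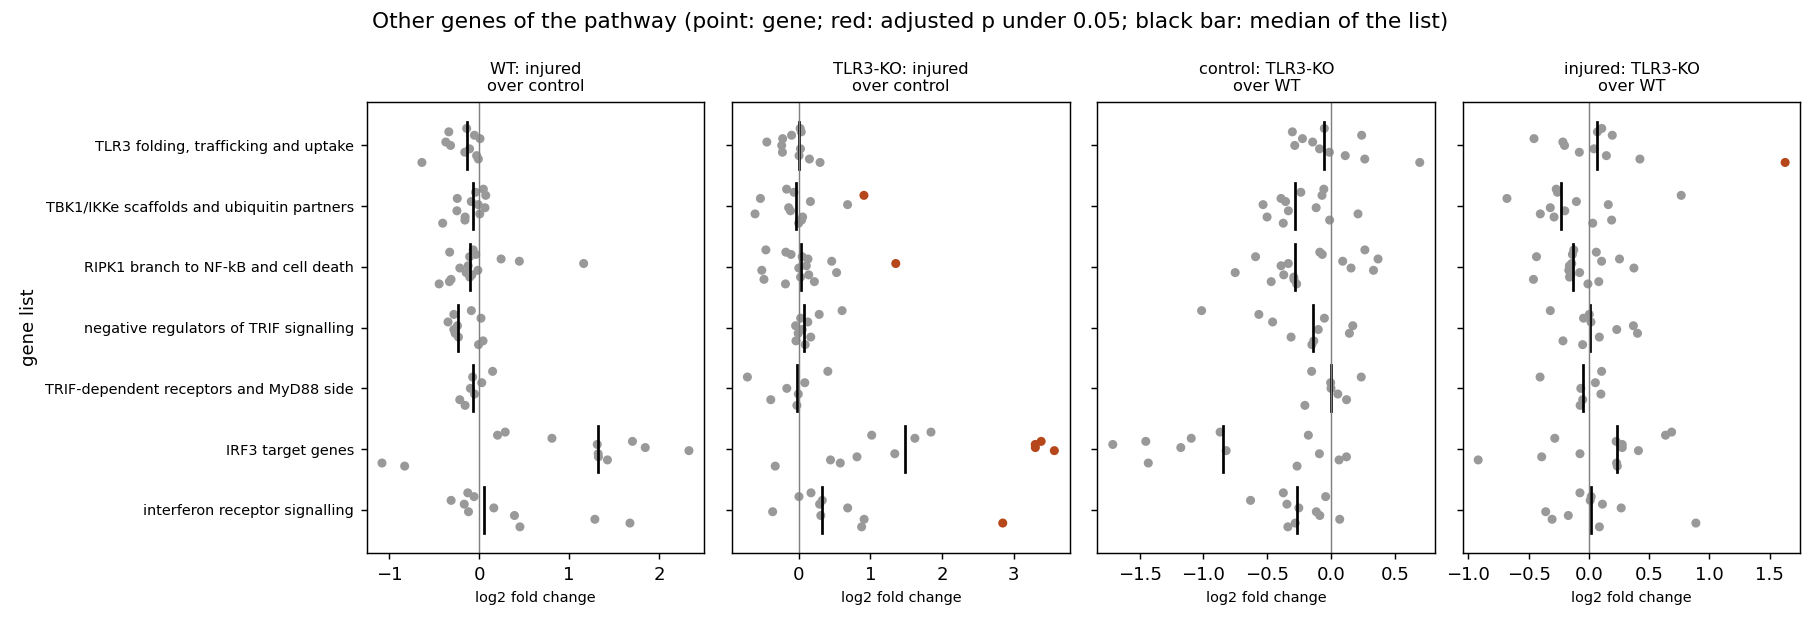
Each point is the log2 fold change of 1 gene of a pathway list in 1 of 4 comparisons (1 panel each, with its own x axis); black bars are list medians and red marks an adjusted p under 0.05. The IRF3 targets lie to the right in both pneumonia panels, with medians of 1.32 and 1.48, and Msr1 is the red point at 1.63 between injured genotypes.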

How the data were processed

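RNA of bronchoalveolar lavage macrophages was measured in 16 libraries, grouped by the labels. Per the labels' protocols, TruSeq mRNA libraries were read as pairs of 50 bases. Per the submitters' processing notes, FastQC 0.11.3, TopHat2 2.0.13, Bowtie2 2.2.1, Cufflinks, Cuffdiff 2.1.1 and the build mm10 were used. The counts deposited by the authors are whole reads per gene symbol, without normalization, made with HTSeq as the table's name states. The strand setting and annotation of the counting are not given in the sources used here. Cuffdiff values were not used here.

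Genes were kept by filterByExpr (minimum count 10, 12455 kept, 10704 removed), and scaled by TMM, with factors from 0.896 to 1.07. A robust quasi-likelihood model with a coefficient per group was fitted with edgeR 4.0.16 under R 4.3.3, with a biological coefficient of variation of 0.238. Benjamini-Hochberg adjustment ran across every tested gene, and a gene was called at an adjusted p under 0.05. Each SE was taken as the absolute log2 fold change over the root of its F statistic. CPM uses raw library totals. RPKM was computed from CPM and GENCODE M21 exon lengths, and positions came from GENCODE M21 (mm10) by symbol or, for Pomk, from RefSeq. Deposited counts of no library pair within a group were copies (chi-square per degree of freedom 8.04 to 303).

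The members and lists were chosen with earlier results of these data known. From each list the text names called genes, up to 4 by lowest p, or the gene with the lowest p where none was called, and it names the 5 genes most correlated with Tlr3 and with Wdfy1. Tnf, genes called with the replicate block alone, Ifit1 as a companion of Ikbke, and overlapping genes were named after their values were seen.

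Same-numbered libraries of the titles were checked for pairing by correlating their departures from group means. Between control genotypes the correlations were 0.48 to 0.60 and for 7 of 8 libraries highest at the same number, so those numbers may pair the control libraries. After pneumonia in TLR3-KO they were -0.07 to 0.34 (6 of 8), and in the other comparisons 0 of 8 matched. This possible pairing was read from the same counts that were tested. The main model does not use it, and values with the replicate block come from an alternative setting. The model was tested on simulated data. Alternative settings were RLE size factors, DESeq2 1.42.0, no filter, a fit of 2 groups, the replicate block, each library left out, subsets of the controls, transcript length for RPKM, and an offset of 0.1 for the correlations. Other software was matplotlib 3.10.9, pandas 2.3.3 and python 3.11.15.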

Additional observations from a re-analysis of the deposited data

Results flagged for a closer look

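In 36 groups of 4 libraries (9 members in 4 groups), 2 held a library far from the other 3 by Dixon's criterion, at a level at which chance alone marks about 1 group in 20. Ticam2 was highest in TLR3-KO control 2, at 69.5 CPM, where the other TLR3-KO controls held 51.3 to 53.3 CPM. Without that library the log2 fold change of Ticam2 between genotypes in controls was -0.10 in place of 0.02, and neither was called. Tbk1 was highest in WT control 4, at 187 CPM, where the other WT controls held 163 to 165 CPM.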

How the results depend on the processing

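Of 747 member values under alternatives, 683 kept their sign and side of the threshold, 1 lost its call, 9 gained one and 54 changed sign, all of the last for members that were not called with all libraries. Wdfy1 was called between genotypes in every setting run (16 in controls and 13 after pneumonia), and Tlr3 in all of them except TLR3-KO control 4 as the only TLR3-KO control. Tlr3 had 13 to 34 reads in each TLR3-KO library, and the log2 fold changes of Ikbke between groups had an SE of 0.44 or 0.45. With the longest transcript as length, 6 of 9 RPKM levels in WT controls moved by more than 1 SD of the 4 libraries, and with an offset of 0.1, 5 of 5 genes most like Tlr3 remained.

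The number of members called became 1 in WT pneumonia with controls 1 and 2 only, 3 in TLR3-KO pneumonia with controls 3 and 4 only, and, between control genotypes, 1 with TLR3-KO control 4 only and 4 with the replicate block. The block changed no other call of a member. The cause of these changes was not tested. All genes called in WT pneumonia (0) were 11 with RLE, 181 with DESeq2, 1 without a filter, 63 with controls 3 and 4, 1631 with controls 1 and 2, and 0 to 10 without single libraries (10 without WT injured 2). In TLR3-KO pneumonia (136) they were 1031 with DESeq2, 44 without a filter, 33 with 2 groups, 0 with the replicate block, 6 with TLR3-KO control 4, 4108 with controls 3 and 4, 83 with controls 1 and 2, and 0 (without TLR3-KO injured 3) to 1238 (without TLR3-KO control 2). Between control genotypes (82) they were 147 with RLE, 781 with DESeq2, 10 with 2 groups, 897 with the replicate block, 11 with TLR3-KO control 4, 20 with controls 3 and 4, 237 with controls 1 and 2, and 17 (without WT control 2) to 466 (without TLR3-KO control 2). After pneumonia (75) they were 444 with DESeq2, 154 with 2 groups and 16 (without TLR3-KO injured 2) to 439 (without WT injured 4). For the difference of responses (0) they were 98 with DESeq2 and 57 with controls 1 and 2.

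Signs of log2 fold changes turned as follows. In WT pneumonia Tlr3 was 0.33 and Ikbke -0.09 with controls 1 and 2, Ticam1 0.39, Traf3 0.31 and Irf3 -0.16 with controls 3 and 4. Without single libraries Tlr3 ran from -0.26 to 0.05, Ticam1 from -0.27 to 0.05, Traf3 from -0.26 to 0.07 and Irf3 from -0.01 to 0.25. In TLR3-KO pneumonia Tlr3 was 0.22 and Ticam1 0.43 with TLR3-KO control 4, Ticam1 0.44 with controls 3 and 4, and Ticam2 -0.0041 with controls 1 and 2. Without single libraries Tlr3 ran from -0.38 to 0.02 and Ticam1 from -0.37 to 0.08. Between control genotypes Ticam1 was -0.56 and Ticam2 -0.19 with TLR3-KO control 4, and -0.08 and -0.15 with controls 3 and 4, and without single libraries they ran from -0.20 to 0.25 and from -0.10 to 0.09. After pneumonia Ticam1 was 0.00087 with the replicate block, and without single libraries Ticam1 ran from -0.10 to 0.09, Traf3 from -0.26 to 0.0024 and Ikbke from -0.05 to 0.53. For the difference of responses Tlr3 was 0.32 and Ticam1 0.55 with TLR3-KO control 4, Tlr3 0.19 and Ticam1 0.05 with controls 3 and 4, and Wdfy1 0.17 with controls 1 and 2. Without single libraries Tlr3 ran from -0.28 to 0.13, Wdfy1 from -0.13 to 0.06 and Ticam1 from -0.26 to 0.19.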
